A study of Mus musculus with 9 samples.

Results

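The 47 genes described here run the cell division cycle: 3 D-type cyclins of G1, 17 genes of G1/S and DNA replication, and 27 genes of G2 and mitosis. They were chosen by symbol, from a list of textbook cell cycle genes, out of the 40213 gene symbols in each count file. The choice was made with earlier results of these data known. All 47 passed the filter on low counts, as did 14413 genes in all, and the lowest count of any of them in any library was 30 (Cdc6). The cells were primary calvarial pre-osteoblasts of 3-day-old WT mouse pups, bone-forming precursors taken from the skull vault. The study's reporting summary names ICR mice as the source of its calvarial pre-osteoblasts. In the first group they were infected on day 3 with Ad-Hif1a, an adenovirus carrying Hif1a, in the second with Ad-Hif2a, which carries Hif2a (Epas1), and in the third with the control adenovirus Ad-C. Every group was kept under normoxia in osteogenic medium with L-AA at 50 μg/ml and β-Gp at 5 mM until day 6, and total RNA of 3 libraries a group was sequenced. The comparison asks what an excess of either HIF-α subunit did to the transcripts of differentiating pre-osteoblasts, and the viral dose for these libraries is not given in the sources used here.

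Cells enter the cycle when D-type cyclins with CDK4 or CDK6 phosphorylate the retinoblastoma proteins and free E2F factors, which switch on the genes of DNA replication. A later wave, driven by B-MYB and FOXM1 with the MuvB complex, switches on the genes of mitosis. In quiescent cells the DREAM complex holds both waves down, through E2F sites in promoters of replication genes and through the cell cycle genes homology region (CHR) in promoters of mitotic genes. Pre-osteoblasts divide before they mature, and HIF-1α is known to slow the cell cycle in several cell types under hypoxia. The mRNA of these genes is read here in bulk cultures, in which fewer dividing cells and less of each mRNA per cell cannot be told apart.

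The promoters of the members differed by phase in the letters they hold, which is shown first because the phase is how the genes are grouped below. RefSeq promoter windows (build GRCm38.p6, 250 bases before to 50 after each start) matched 38 of the 47 members. Those without an entry were Ccnd1, Ccnd2, Ccne2, Mcm4, Foxm1, Ccna2, Aurkb, Tpx2 and Kif20a. Windows were searched on both strands for E2F motifs (TTTCCCGC, TTTGGCGC, TTTCGCGC, TTTGCCGC, TTCCCGCC or TTGGCGCC, which can overlap each other and the CCAAT box), for the CHR (TTTGAA or TTCGAA), for the CCAAT box bound by NF-Y, and for the HIF motif (ACGTG or GCGTG). An E2F motif stood in 7 of 15 windows of G1/S genes (46.7%) and in 2 of 22 of G2/M genes (9.09%), against 8.997% of the 11104 tested genes with a window and 5.11% of all 27025 genes with one. A CHR stood in 2 of 15 windows of G1/S genes (13.3%) and in 18 of 22 of G2/M genes (81.8%), against 16.9% of tested genes and 21.7% of all genes with a window. CCAAT was found in 53.3% of G1/S, 86.4% of G2/M and 43.1% of tested genes. The HIF motif was found in 66.7% of G1/S, 81.8% of G2/M and 65.7% of tested genes, so it was common in all of these groups. These shares describe the letters only.

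**Figure D1:**
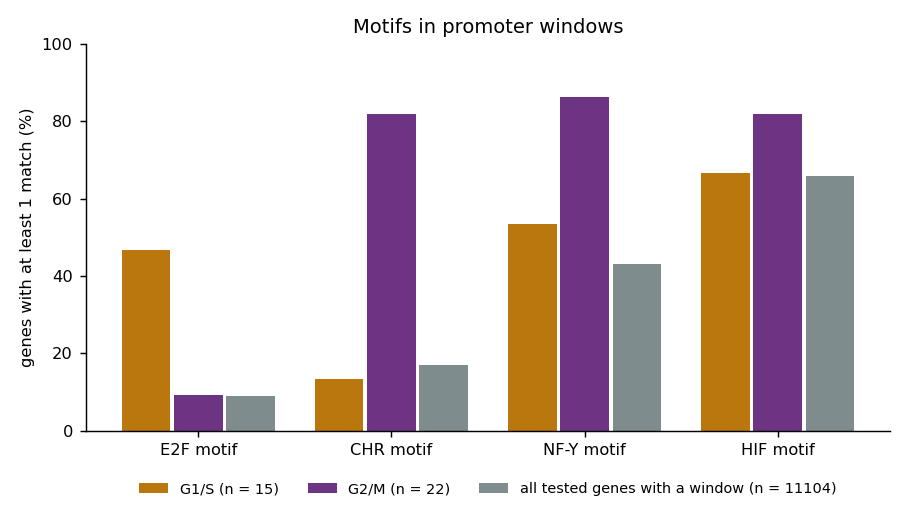
Share of genes (percent, y axis) with at least 1 match to each motif (x axis) in the promoter window, for G1/S genes, G2/M genes and all tested genes with a window. The E2F bar is tallest for G1/S genes (46.7%) and the CHR bar for G2/M genes (81.8%), while the HIF bars stand at 65.7 to 81.8%.

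The 5 stretches that follow show this pattern in genes that fell with a vector and in genes that did not pass the test. Each holds the 150 bases from 120 before the start to 30 after it, read 5′ to 3′ on the strand of the gene, with CHR and E2F motifs in capitals. Kif23 and Cenpf fell with both vectors and Cdc20 with neither, and all 3 carry a CHR near the start. Mcm6 fell with Ad-Hif2a and Rrm1 with neither, and both carry at least 1 E2F motif.
Kif23 (chr9:61946770-61946919, minus strand): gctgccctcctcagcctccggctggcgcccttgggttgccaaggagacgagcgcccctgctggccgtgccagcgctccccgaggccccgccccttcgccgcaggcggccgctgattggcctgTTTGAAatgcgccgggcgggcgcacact
Cenpf (chr1:189688057-189688206, minus strand): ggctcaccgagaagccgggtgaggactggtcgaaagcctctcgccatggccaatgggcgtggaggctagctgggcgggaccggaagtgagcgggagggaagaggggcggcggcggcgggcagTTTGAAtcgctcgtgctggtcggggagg
Cdc20 (chr4:118437314-118437463, minus strand): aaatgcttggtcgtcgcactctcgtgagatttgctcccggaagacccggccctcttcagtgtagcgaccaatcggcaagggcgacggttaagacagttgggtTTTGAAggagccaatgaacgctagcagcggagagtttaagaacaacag
Mcm6 (chr1:128359676-128359825, minus strand): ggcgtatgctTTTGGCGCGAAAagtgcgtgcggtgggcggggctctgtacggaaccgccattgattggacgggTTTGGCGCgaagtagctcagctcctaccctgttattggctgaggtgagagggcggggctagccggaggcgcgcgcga
Rrm1 (chr7:102441575-102441724, plus strand): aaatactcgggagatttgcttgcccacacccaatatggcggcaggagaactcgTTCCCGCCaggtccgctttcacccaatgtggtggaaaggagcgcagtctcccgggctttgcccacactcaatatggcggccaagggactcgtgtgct
Of the G2/M genes that fell with either vector, 7 of the 9 with a window held a CHR, and of those that did not pass the test 11 of 13 did.

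With each HIF vector most of these genes stood lower than in Ad-C, and by the median the G2/M genes stood lower than the G1/S genes. Of the 3 D-type cyclins, Ccnd1 and Ccnd2 stood lower with both vectors and Ccnd3 did not. With Ad-Hif1a, 6 of the 47 fell and 0 rose, and with Ad-Hif2a 15 fell and 0 rose, at an adjusted p under 0.05 in the quasi-likelihood test of edgeR. Over all genes tested, 5.22% fell and 6.04% rose with Ad-Hif1a, and 7.72% fell and 7.87% rose with Ad-Hif2a. The fold changes of 43 members were below 0 with Ad-Hif1a and of 44 with Ad-Hif2a, with medians on the log2 scale of -0.57 and -0.77, against 0.01 for all genes in both comparisons. All 3 Ad-Hif1a libraries lay below all 3 Ad-C libraries for 38 members and above them for 0, as they did for 25.9% and 24.5% of all genes. All 3 Ad-Hif2a libraries lay below for 34 members and above for 1 (Tyms), against 25.5% and 24% of all genes. The 2 comparisons share the Ad-C libraries. The study defines n in general as independent experiments or mice. The labels do not tie single libraries to a culture or animal, so the p-values measure the spread between these libraries, part of which may be technical.

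These counts depended on single libraries. When Ad-Hif1a replicate 1 was dropped, 1 member fell with Ad-Hif1a, and when Ad-Hif1a replicate 2 or any Ad-C library was dropped, 0 did. Dropping Ad-Hif2a replicate 2 gave 11 and dropping Ad-Hif2a replicate 3 gave 30. In the comparison of Ad-Hif2a with Ad-C, 1 member fell when Ad-Hif2a replicate 1, Ad-C replicate 1 or Ad-C replicate 3 was dropped. Dropping Ad-Hif1a replicate 2 or Ad-C replicate 2 gave 6, dropping Ad-Hif2a replicate 2 gave 26, and dropping its replicate 3 gave 27. The scaling method moved the directions little: under RLE, upper-quartile and no composition factors all 27 G2/M genes stayed below 0 with Ad-Hif1a, and 26 or 27 with Ad-Hif2a, the exception being Birc5 under RLE. The factors of the main fit lay between 0.957 and 1.03, so other factors could turn only fold changes near 0. With 1 library left out, Birc5 reached 0.14 with Ad-Hif1a and 0.40 with Ad-Hif2a, and Cdk1 reached 0.089 with Ad-Hif2a. For single genes that passed the test and are given with their values, the text adds in how many of 20 alternative settings the call held, in the order of the comparisons in the sentence.

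**Figure D2:**
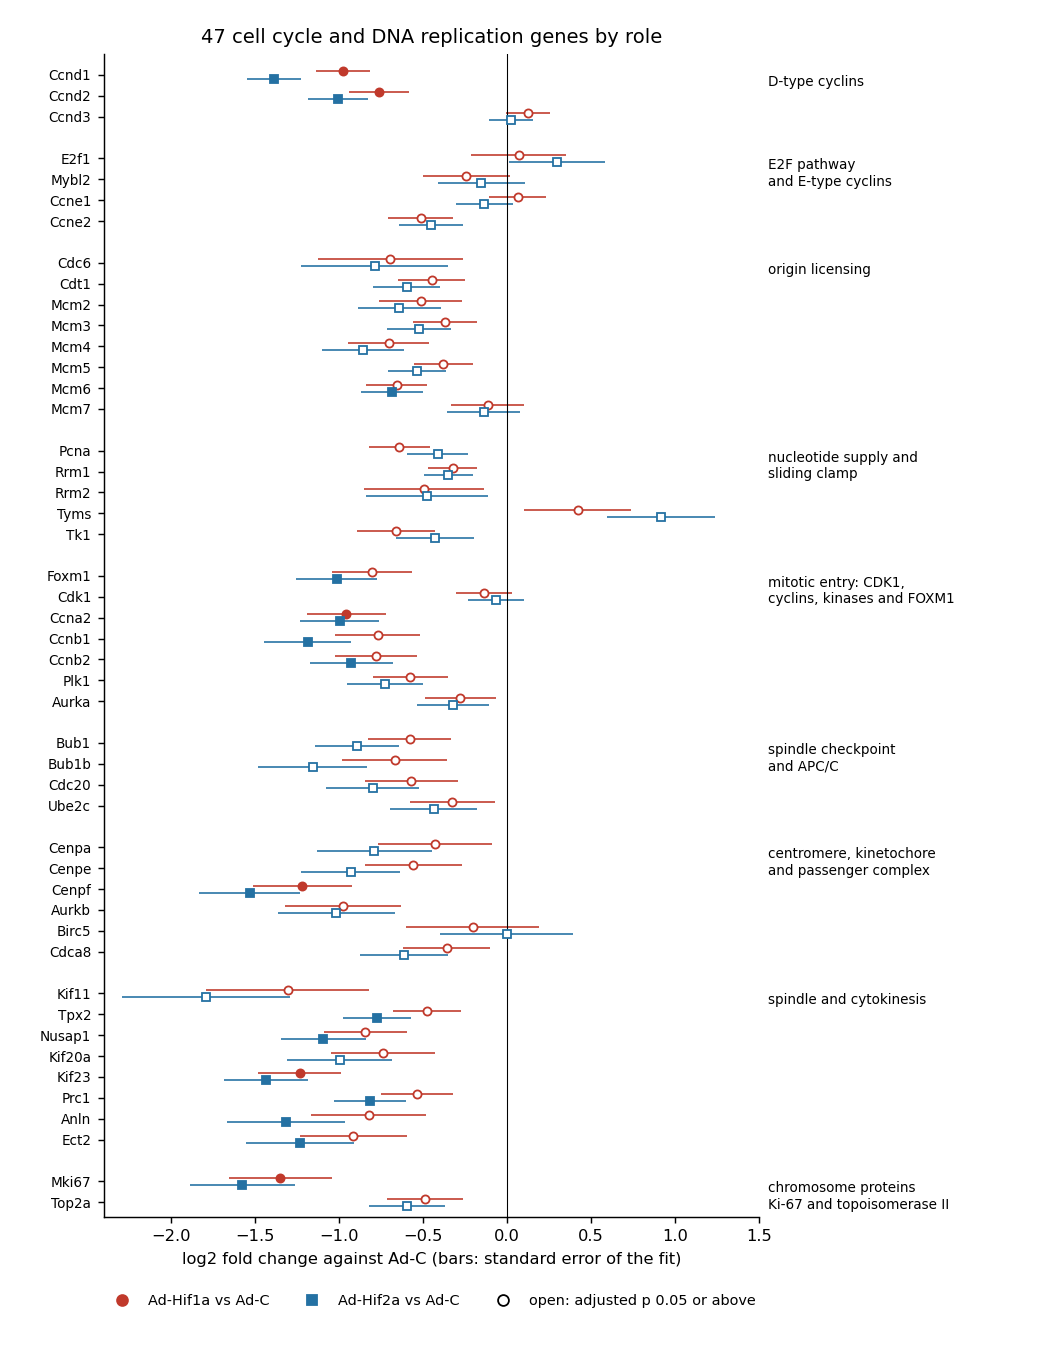
Log2 fold change against Ad-C (x axis, bars are standard errors of the fit) of each of the 47 genes (y axis, grouped by role), with Ad-Hif1a as circles and Ad-Hif2a as squares, filled where the adjusted p was under 0.05. Nearly all points lie left of 0, Tyms lies furthest to the right, and the filled points are Ccnd1, Ccnd2, Mcm6 and 12 genes of G2/M.

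Libraries differed within the vector groups. The mean log2 CPM (TMM-scaled CPM, that is counts scaled to a common library size) of the 27 G2/M genes was 4.22, 4.36 and 4.34 in Ad-Hif1a replicates 1 to 3 and 3.62, 4.67 and 3.86 in Ad-Hif2a replicates 1 to 3, against 4.99, 5.07 and 4.99 in Ad-C. For the 17 G1/S genes it was 4.68, 4.59 and 4.59 with Ad-Hif1a and 4.37, 4.88 and 4.59 with Ad-Hif2a, against 5.00, 5.00 and 4.97 with Ad-C. Every vector library thus lay below every control on both, and Ad-Hif2a replicate 2 lay closest to Ad-C. The G2/M mean minus the G1/S mean was -0.46, -0.22 and -0.24 with Ad-Hif1a and -0.75, -0.22 and -0.72 with Ad-Hif2a, against -0.01, 0.06 and 0.02 with Ad-C. In the fit, the median log2 fold change of the G2/M genes was -0.67 with Ad-Hif1a and -0.93 with Ad-Hif2a, and that of the G1/S genes -0.45 with each. The G2/M median lay 0.22 further down than the G1/S median with Ad-Hif1a (-0.22) and 0.48 further down with Ad-Hif2a (-0.48). With 1 library left out, the first ranged over -0.34 (without Ad-C replicate 2) to -0.14 (without Ad-C replicate 1 or Ad-Hif1a replicate 2), and the second over -0.67 to -0.36. Of the G2/M genes 4 fell with Ad-Hif1a and 12 with Ad-Hif2a, and of the G1/S genes 0 and 1. Below all Ad-C libraries lay 24 G2/M and 12 G1/S genes with Ad-Hif1a, and 23 and 9 with Ad-Hif2a.

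**Figure D3:**
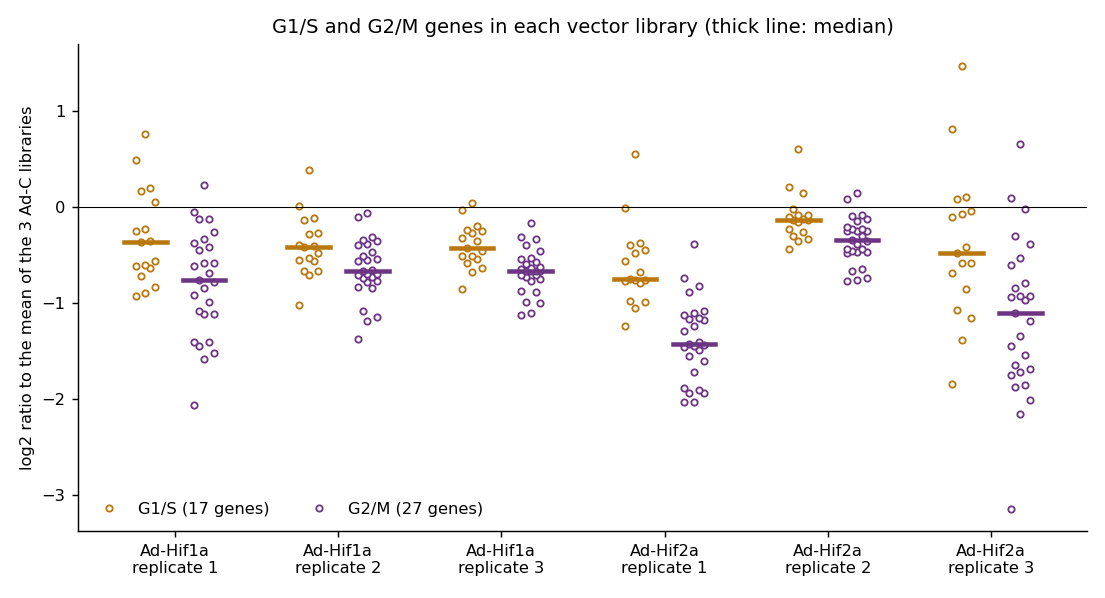
Log2 ratio to the mean of the 3 Ad-C libraries (y axis) of the 17 G1/S and 27 G2/M genes in each of the 6 vector libraries (x axis), 1 point a gene, with the median as a thick line. The G2/M median lies below the G1/S median in all 6 libraries, from -0.35 in Ad-Hif2a replicate 2 to -1.43 in Ad-Hif2a replicate 1.

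Among the D-type cyclins, which pair with CDK4 and CDK6 and couple growth signals to the cycle, Ccnd1 and Ccnd2 fell with both vectors and Ccnd3 did not pass the test with either. Ccnd1 stood at 588, 501 and 448 CPM with Ad-Hif1a and 362, 400 and 391 CPM with Ad-Hif2a, against 1028, 977 and 1016 CPM with Ad-C. No libraries of 2 groups overlapped. It fell by 0.98 ± 0.16 on the log2 scale (SE, adjusted p = 0.00905) with Ad-Hif1a and by 1.39 ± 0.16 (adjusted p = 0.00191) with Ad-Hif2a, and the calls held in 16 and 20 settings. Ccnd2 stood at 1063, 941 and 813 CPM with Ad-Hif1a and 719, 752 and 905 CPM with Ad-Hif2a, against 1642, 1561 and 1573 CPM with Ad-C. All vector libraries lay below all controls, and the 2 vector groups overlapped. It fell by 0.76 ± 0.18 (adjusted p = 0.0352) and by 1.01 ± 0.18 (adjusted p = 0.0103), with calls held in 10 and 14 settings. Ccnd3 stood at 127, 111 and 116 CPM with Ad-Hif1a and 113, 112 and 105 CPM with Ad-Hif2a, against 116, 102 and 107 CPM with Ad-C. Its groups overlapped, with log2 fold changes of 0.12 ± 0.13 (adjusted p = 0.571) and 0.02 ± 0.13 (adjusted p = 0.917), the second of which turned below 0 with upper-quartile or no composition factors.

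The E2F pathway and the E-type cyclins, which pair with CDK2 at the G1/S border, gave no call. Ccne2 stood at 10.3, 11.1 and 12.5 CPM with Ad-Hif1a and 9.20, 14.6 and 11.9 CPM with Ad-Hif2a, against 16.4, 17.5 and 14.4 CPM with Ad-C. Only the Ad-Hif1a libraries lay wholly below Ad-C, and the log2 fold changes were -0.51 ± 0.19 (adjusted p = 0.144) and -0.45 ± 0.19 (adjusted p = 0.146). Ccne1 stood at 40.4, 35.3 and 34.2 CPM with Ad-Hif1a and 27.1, 31.9 and 37.2 CPM with Ad-Hif2a, against 36.7, 33.3 and 35.4 CPM with Ad-C. E2f1, the activating E2F factor, stood at 40.1, 26.4 and 24.1 CPM with Ad-Hif1a and 28.3, 28.1 and 50.0 CPM with Ad-Hif2a, against 30.4, 28.1 and 27.2 CPM with Ad-C. Its highest values were in Ad-Hif1a replicate 1 and Ad-Hif2a replicate 3, and the groups overlapped. Mybl2, which encodes B-MYB, stood at 7.59, 6.05 and 4.97 CPM with Ad-Hif1a and 4.90, 8.12 and 6.77 CPM with Ad-Hif2a, against 7.78, 6.90 and 7.27 CPM with Ad-C. For these 3 genes the log2 fold changes lay between -0.24 and 0.29, with adjusted p of 0.475 or more.

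Origin licensing loads the MCM2-7 helicase on DNA with the help of Cdc6 and Cdt1. All 8 licensing genes were below 0 in both comparisons, and 1 of them, Mcm6, fell with Ad-Hif2a, with none called for Ad-Hif1a (lowest adjusted p = 0.0626). Mcm6 stood at 48.7, 49.3 and 39.7 CPM with Ad-Hif1a and 34.7, 57.1 and 44.7 CPM with Ad-Hif2a, against 71.4, 75.0 and 70.3 CPM with Ad-C. No vector library reached the controls. The fold change with Ad-Hif1a was -0.66 ± 0.18, and it fell by 0.69 ± 0.18 with Ad-Hif2a (adjusted p = 0.0447), a call held in 11 settings. Mcm4 stood at 32.5, 37.2 and 42.6 CPM with Ad-Hif1a and 25.5, 51.6 and 27.1 CPM with Ad-Hif2a, against 57.4, 61.5 and 63.5 CPM with Ad-C. It came close to the threshold with Ad-Hif2a, at -0.86 ± 0.24 (adjusted p = 0.054), and its groups did not overlap with Ad-C. Mcm5 stood at 25.5, 22.5 and 21.1 CPM with Ad-Hif1a and 17.6, 24.9 and 19.9 CPM with Ad-Hif2a, against 28.7, 30.8 and 30.5 CPM with Ad-C. Cdt1 stood at 11.8, 11.3 and 10.1 CPM with Ad-Hif1a and 7.61, 11.8 and 10.9 CPM with Ad-Hif2a, against 15.1, 15.1 and 15.2 CPM with Ad-C. Both lay wholly below Ad-C with each vector without passing the test, with adjusted p of 0.0802 and 0.0848 for Ad-Hif2a. Of the other members, Mcm7 was nearest to 0, at -0.12 ± 0.22 with Ad-Hif1a and -0.14 ± 0.22 with Ad-Hif2a, and Cdc6, Mcm2 and Mcm3 lay between -0.79 and -0.37 over both comparisons.

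The sliding clamp and the enzymes of nucleotide supply did not pass the test, and one of them pointed the other way. Pcna, the clamp that holds polymerases on DNA, stood at 63.3, 60.5 and 61.8 CPM with Ad-Hif1a and 57.1, 71.2 and 91.4 CPM with Ad-Hif2a, against 98.6, 98.1 and 92.5 CPM with Ad-C. The Ad-Hif1a libraries lay close together and far below the controls, while Ad-Hif2a replicate 3 nearly reached them. Its log2 fold changes were -0.64 ± 0.18 (adjusted p = 0.0667) and -0.41 ± 0.18 (adjusted p = 0.156). Tk1, the thymidine kinase of S phase, stood at 11.0, 10.6 and 10.5 CPM with Ad-Hif1a and 8.43, 13.7 and 16.5 CPM with Ad-Hif2a, against 17.2, 17.2 and 16.5 CPM with Ad-C. Its Ad-Hif1a libraries lay close together and its Ad-Hif2a replicate 3 came up to the lowest control, with adjusted p of 0.123 and 0.229. Rrm1, the large subunit of ribonucleotide reductase, stood at 93.7, 99.5 and 96.5 CPM with Ad-Hif1a and 91.7, 114 and 80.8 CPM with Ad-Hif2a, against 119, 128 and 117 CPM with Ad-C. Tyms, thymidylate synthase, stood at 37.0, 28.4 and 22.5 CPM with Ad-Hif1a and 32.0, 33.2 and 60.4 CPM with Ad-Hif2a, against 20.9, 25.6 and 19.4 CPM with Ad-C. It was the only member with all 3 Ad-Hif2a libraries above Ad-C, at a log2 fold change of 0.92 ± 0.32 (adjusted p = 0.0982), and at 0.42 ± 0.32 with Ad-Hif1a (adjusted p = 0.435). Rrm2, the small subunit, was at -0.50 ± 0.36 and -0.48 ± 0.36.

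**Figure D4:**
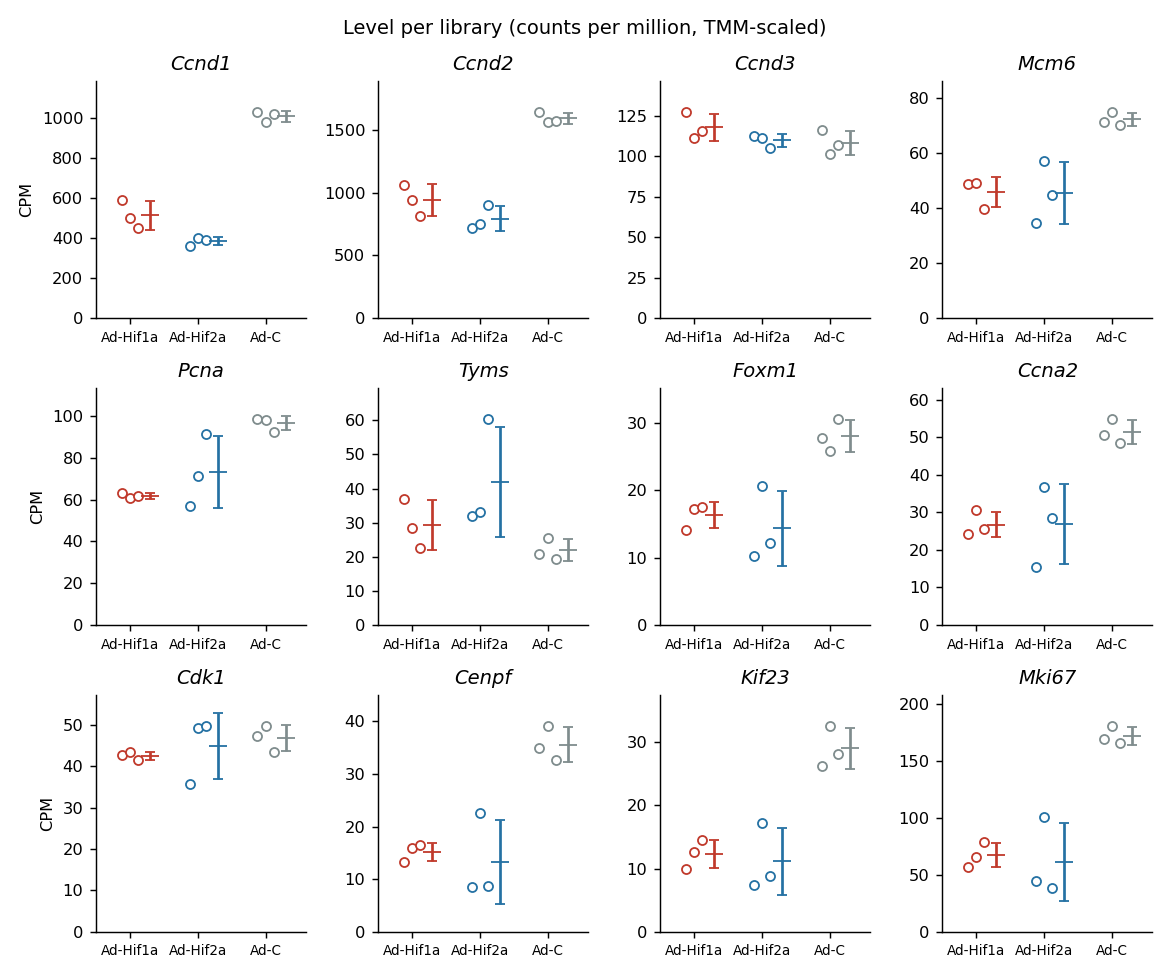
Level in CPM (y axis, from 0) of 12 of the genes in each of 9 libraries (points, by virus on the x axis), with the mean and SD of the 3 libraries beside them. Ccnd1, Ccnd2, Mcm6, Foxm1, Ccna2, Cenpf, Kif23 and Mki67 show every vector library below every control, whereas Ccnd3 and Cdk1 overlap and Tyms runs higher with Ad-Hif2a.

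Of the 7 genes of mitotic entry, Ccna2 fell with both vectors, and Ccnb1, Ccnb2 and Foxm1 fell with Ad-Hif2a and did not pass the test with Ad-Hif1a. Cdk1, Plk1 and Aurka did not pass it with either. Ccna2, the A-type cyclin of S phase and G2, stood at 24.1, 30.6 and 25.5 CPM with Ad-Hif1a and 15.5, 36.8 and 28.4 CPM with Ad-Hif2a, against 50.7, 54.95 and 48.5 CPM with Ad-C. It fell by 0.96 ± 0.23 (adjusted p = 0.0416) and by 0.998 ± 0.24 (adjusted p = 0.0304), with calls held in 13 and 14 settings. Ccnb1 stood at 19.7, 22.3 and 20.8 CPM with Ad-Hif1a and 12.9, 25.7 and 10.7 CPM with Ad-Hif2a, against 34.1, 37.0 and 35.8 CPM with Ad-C. This B-type cyclin fell by 1.19 ± 0.26 with Ad-Hif2a (adjusted p = 0.0228, held in 17 settings) and was at -0.77 ± 0.25 with Ad-Hif1a (adjusted p = 0.104). Foxm1, the transcription factor of the mitotic wave, stood at 14.0, 17.2 and 17.5 CPM with Ad-Hif1a and 10.2, 20.6 and 12.2 CPM with Ad-Hif2a, against 27.7, 25.8 and 30.6 CPM with Ad-C. It fell by 1.02 ± 0.24 with Ad-Hif2a (adjusted p = 0.0309, held in 15 settings) and was at -0.80 ± 0.24 with Ad-Hif1a (adjusted p = 0.0776). Ccnb2 stood at 14.6, 14.0 and 15.3 CPM with Ad-Hif1a and 8.85, 19.1 and 12.7 CPM with Ad-Hif2a, against 25.3, 25.6 and 24.4 CPM with Ad-C. It fell by 0.93 ± 0.25 with Ad-Hif2a (adjusted p = 0.0447, held in 12 settings) and was at -0.78 ± 0.24 with Ad-Hif1a (adjusted p = 0.0908). For all 4 genes no vector library reached a control, and Ad-Hif2a replicate 2 was the highest of its group. Cdk1, the kinase that these cyclins activate, was at -0.14 ± 0.17 (adjusted p = 0.618) and -0.07 ± 0.17 (adjusted p = 0.785), and its libraries overlapped with Ad-C in both comparisons. The kinases Plk1 and Aurka were at -0.58 and -0.28 with Ad-Hif1a and at -0.73 and -0.32 with Ad-Hif2a, not past the threshold.

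The spindle checkpoint delays anaphase until chromosomes are attached, and the APC/C with Cdc20 and Ube2c then ends mitosis. None of its 4 genes passed the test. Bub1 stood at 9.40, 11.2 and 11.6 CPM with Ad-Hif1a and 5.96, 13.8 and 7.36 CPM with Ad-Hif2a, against 15.9, 18.8 and 13.7 CPM with Ad-C, with Ad-Hif2a replicate 2 just inside the range of the controls. Bub1b stood at 13.8, 15.1 and 13.2 CPM with Ad-Hif1a and 5.37, 18.7 and 8.74 CPM with Ad-Hif2a, against 21.1, 24.6 and 21.6 CPM with Ad-C. Both came close to the threshold with Ad-Hif2a, at -0.90 ± 0.25 (adjusted p = 0.052) for Bub1 and -1.16 ± 0.32 (adjusted p = 0.0525) for Bub1b. Cdc20 stood at 16.0, 13.8 and 10.9 CPM with Ad-Hif1a and 7.25, 14.9 and 13.2 CPM with Ad-Hif2a, against 19.99, 20.8 and 19.8 CPM with Ad-C. Ube2c stood at 22.7, 20.9 and 21.9 CPM with Ad-Hif1a and 16.3, 30.3 and 15.7 CPM with Ad-Hif2a, against 27.5, 25.4 and 29.2 CPM with Ad-C. Cdc20 lay wholly below Ad-C with each vector (adjusted p of 0.243 and 0.0956), whereas Ad-Hif2a replicate 2 put Ube2c above the controls (adjusted p of 0.442 and 0.257).

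Of the 6 genes of centromeres, kinetochores and the chromosomal passenger complex, Cenpf fell with both vectors. Cenpf, a large kinetochore protein, stood at 13.3, 15.9 and 16.5 CPM with Ad-Hif1a and 8.55, 22.5 and 8.67 CPM with Ad-Hif2a, against 35.0, 39.2 and 32.6 CPM with Ad-C. It fell by 1.22 ± 0.29 (adjusted p = 0.0406) and by 1.53 ± 0.30 (adjusted p = 0.0157), with calls held in 14 and 17 settings. Cenpe, the kinetochore motor, stood at 23.5, 23.9 and 24.0 CPM with Ad-Hif1a and 14.7, 32.2 and 11.9 CPM with Ad-Hif2a, against 35.2, 36.4 and 34.0 CPM with Ad-C. Aurkb, the kinase of the passenger complex, stood at 5.66, 8.84 and 9.13 CPM with Ad-Hif1a and 6.90, 12.98 and 4.08 CPM with Ad-Hif2a, against 14.5, 15.7 and 15.7 CPM with Ad-C. Both lay wholly below Ad-C without passing the test, with log2 fold changes of -0.56 ± 0.29 and -0.93 ± 0.30 for Cenpe and -0.98 ± 0.34 and -1.02 ± 0.35 for Aurkb. Cdca8, another subunit of that complex, stood at 14.5, 12.3 and 10.1 CPM with Ad-Hif1a and 6.96, 12.3 and 12.02 CPM with Ad-Hif2a, against 15.7, 15.4 and 16.3 CPM with Ad-C, with adjusted p of 0.41 and 0.146. Birc5, which encodes survivin of the same complex, was at -0.21 ± 0.40 and 0.00 ± 0.40, and Cenpa, the histone of centromeres, at -0.43 ± 0.34 and -0.79 ± 0.34.

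Of the 8 spindle and cytokinesis genes, 1 fell with Ad-Hif1a and 6 with Ad-Hif2a, with medians of -0.83 and -1.17. Kif23, a motor of the central spindle, stood at 9.97, 12.6 and 14.5 CPM with Ad-Hif1a and 7.43, 17.3 and 8.89 CPM with Ad-Hif2a, against 26.2, 32.6 and 28.2 CPM with Ad-C. It fell by 1.23 ± 0.25 (adjusted p = 0.0212) and by 1.44 ± 0.25 (adjusted p = 0.0100), with calls held in 15 and 17 settings. Nusap1, a microtubule-binding protein, stood at 12.8, 16.3 and 17.96 CPM with Ad-Hif1a and 10.3, 20.2 and 10.1 CPM with Ad-Hif2a, against 27.4, 28.1 and 28.1 CPM with Ad-C. It fell by 1.10 ± 0.25 with Ad-Hif2a (adjusted p = 0.0282, held in 15 settings). Ect2, which activates RhoA for cytokinesis, stood at 8.21, 13.8 and 15.1 CPM with Ad-Hif1a and 7.31, 16.2 and 7.14 CPM with Ad-Hif2a, against 24.5, 22.4 and 21.0 CPM with Ad-C. It fell by 1.23 ± 0.32 with Ad-Hif2a (adjusted p = 0.0426, held in 14 settings). Tpx2, which activates Aurora A on the spindle, stood at 42.7, 49.7 and 49.8 CPM with Ad-Hif1a and 29.4, 55.2 and 34.1 CPM with Ad-Hif2a, against 66.3, 67.1 and 63.7 CPM with Ad-C. It fell by 0.77 ± 0.20 with Ad-Hif2a (adjusted p = 0.0430, held in 12 settings). In all 4 genes the vector libraries lay wholly below Ad-C. Prc1 and Anln fell with Ad-Hif2a as well, by 0.82 ± 0.22 (adjusted p = 0.0438, held in 12 settings) and by 1.32 ± 0.35 (adjusted p = 0.0460, held in 11). Kif11, the motor that parts the spindle poles, had the lowest fold change of all members with Ad-Hif2a, -1.79 ± 0.50, and missed the threshold (adjusted p = 0.0522), and Kif20a was at -0.997 ± 0.31 (adjusted p = 0.0735).

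Mki67, which encodes the proliferation marker Ki-67, stood at 57.3, 66.0 and 78.8 CPM with Ad-Hif1a and 44.8, 101 and 38.3 CPM with Ad-Hif2a, against 169, 181 and 166 CPM with Ad-C. Every vector library lay far below every control, Ad-Hif2a replicate 2 being the highest of them. It fell by 1.35 ± 0.31 (adjusted p = 0.0336) and by 1.58 ± 0.31 (adjusted p = 0.0163), with calls held in 14 and 17 settings. Top2a, topoisomerase II of dividing cells, stood at 93.0, 86.8 and 76.0 CPM with Ad-Hif1a and 53.1, 108 and 83.3 CPM with Ad-Hif2a, against 116, 133 and 113 CPM with Ad-C. It lay wholly below Ad-C with each vector and did not pass the test, at -0.49 ± 0.23 (adjusted p = 0.221) and -0.59 ± 0.23 (adjusted p = 0.119).

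Between the vectors no member passed the test. In the comparison of Ad-Hif2a with Ad-Hif1a, 0 of the 47 rose and 0 fell by edgeR, as was so for DESeq2, and 1 had an unadjusted p under 0.05. Over all genes 0% rose and 0% fell, while 338 had an unadjusted p under 0.05, and DESeq2 called 14 higher and 5 lower. The 1 member was Ccnd1, at 362 to 400 CPM with Ad-Hif2a and 448 to 588 CPM with Ad-Hif1a, a log2 fold change of -0.41 ± 0.16 (edgeR adjusted p = 0.9998). Of the members 38 were lower with Ad-Hif2a, with a median of -0.15. Their log2 fold changes lay between -0.49 and 0.50, with an SE of 0.13 (Ccnd3) to 0.50 (Kif11). A fall called with Ad-Hif2a and not with Ad-Hif1a is therefore not shown to differ between the vectors.

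Other genes of the same processes were read from lists that do not overlap with the 47. Of 40 other replication genes, 3 fell with Ad-Hif1a (Pola1, Pold3 and Pole2) and 3 with Ad-Hif2a (Pola1, Pold3 and Prim1), with 0 risen and medians of -0.35 and -0.32. As shares these lie near the 5.22% and 7.72% of all tested genes that fell, so they are no result about replication genes. Pola1, the catalytic subunit of the polymerase that starts each strand, stood at 10.7, 14.2 and 12.4 CPM with Ad-Hif1a and 8.67, 16.1 and 8.45 CPM with Ad-Hif2a, against 21.9, 22.9 and 22.3 CPM with Ad-C. It fell by 0.87 ± 0.21 (adjusted p = 0.0436) and by 1.07 ± 0.22 (adjusted p = 0.0177), with calls held in 14 and 17 settings. Of 50 other mitotic genes, 1 fell with Ad-Hif1a (Aspm) and 6 with Ad-Hif2a (Aspm, Kif15, Sgo2a, Kif2c, Kif4 and Knl1), with 0 risen and medians of -0.46 and -0.65. As shares, the first lies below the 5.22% of all tested genes that fell and the second above the 7.72%. These counts are not read as a result about mitotic genes. Aspm, a spindle pole protein, stood at 6.40, 10.0 and 9.69 CPM with Ad-Hif1a and 3.72, 12.3 and 4.37 CPM with Ad-Hif2a, against 19.5, 23.1 and 23.8 CPM with Ad-C. It fell with both vectors, with log2 fold changes of -1.39 ± 0.33 (adjusted p = 0.0381) and -1.85 ± 0.34 (adjusted p = 0.0122), held in 14 and 17 settings. The vector libraries of both genes lay wholly below Ad-C. These list counts rested on single libraries too. The 5.22% and 7.72% belong to the main fit, and shares of all genes for the fits that follow are not given here. Counts of those fits are not read as results about these lists. For Ad-Hif1a, dropping Ad-Hif2a replicate 3 gave 13 replication and 19 mitotic genes, dropping Ad-Hif1a replicate 3 gave 4 and 8, dropping Ad-Hif2a replicate 2 gave 4 and 2, dropping Ad-Hif2a replicate 1 gave 2 and 0, and dropping any other library gave 0 of both. For Ad-Hif2a, dropping Ad-Hif2a replicate 3 gave 9 and 14, dropping Ad-Hif2a replicate 2 gave 5 and 16, dropping Ad-Hif1a replicate 3 gave 6 and 14, dropping Ad-Hif1a replicate 1 gave 2 and 3, dropping Ad-Hif1a replicate 2 or Ad-C replicate 2 gave 1 and 1, and dropping any other library gave 0 of both.

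Among 20 tested of 21 other G1 regulators, Cdk6 fell with both vectors and Rbl1 and E2f2 with Ad-Hif2a, and 0 rose. Of all tested genes 5.22% fell with Ad-Hif1a and 7.72% with Ad-Hif2a. The count with Ad-Hif1a lies near that share, so it is no result about G1 regulators. Rbl1, which encodes the retinoblastoma relative p107 of the DREAM complex, stood at 9.29, 11.6 and 16.2 CPM with Ad-Hif1a and 10.7, 15.1 and 7.36 CPM with Ad-Hif2a, against 25.7, 25.1 and 30.8 CPM with Ad-C. It fell by 1.30 ± 0.30 with Ad-Hif2a (adjusted p = 0.0299, held in 15 settings). Cdk6, a partner of the D-type cyclins, fell by 0.55 ± 0.14 (adjusted p = 0.0465) and by 0.53 ± 0.14 (adjusted p = 0.0413), with calls held in 8 and 9 settings. With the transcript length offsets described next it stood at -0.16 and 0.08 and lost both calls. E2f2, an activating E2F factor, fell by 0.95 ± 0.25 with Ad-Hif2a (adjusted p = 0.0451, held in 9 settings) and lost its call with those offsets too (-0.70, adjusted p = 0.131). With Ad-Hif1a, the count of G1 regulators that fell was 5 when Ad-Hif1a replicate 3 was dropped, 11 when Ad-Hif2a replicate 3 was, and 0 for any other library. With Ad-Hif2a it was 7 when Ad-Hif1a replicate 3 was dropped, 4 for Ad-Hif2a replicate 3, 1 for Ad-Hif1a replicate 1 or Ad-Hif2a replicate 2, and 0 for any other. Shares of all genes in these fits are not given here either, so the counts are no result about G1 regulators. Of 7 CDK inhibitors, 1 fell with both vectors and 1 rose with Ad-Hif2a, too few to set against the shares of all genes. The one that fell was Cdkn1c, which encodes p57, at 30.9, 21.5 and 19.3 CPM with Ad-Hif1a and 16.0, 18.6 and 34.2 CPM with Ad-Hif2a, against 80.6, 80.8 and 68.8 CPM with Ad-C. It fell by 1.69 ± 0.33 (adjusted p = 0.0187) and by 1.77 ± 0.33 (adjusted p = 0.0132), with calls held in 16 and 15 settings, and it passed with neither vector when any Ad-C library was dropped. Cdkn1a, which encodes the p53 target p21, stood at 497, 404 and 397 CPM with Ad-Hif1a and 670, 426 and 647 CPM with Ad-Hif2a, against 357, 338 and 340 CPM with Ad-C. Its libraries lay above Ad-C with each vector, and it rose by 0.73 ± 0.18 with Ad-Hif2a (adjusted p = 0.0335, held in 13 settings) and was at 0.32 ± 0.18 with Ad-Hif1a (adjusted p = 0.299). Cdkn1b and Cdkn2a did not pass the test, at -0.56 ± 0.17 and 0.68 ± 0.40 with Ad-Hif1a and -0.43 ± 0.17 and 0.82 ± 0.41 with Ad-Hif2a.

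Longer transcripts tended to be lower in every vector library relative to Ad-C, to a degree that differed between libraries. Across 13595 genes, the Spearman correlation of the log2 ratio to the Ad-C mean with transcript length was -0.43, -0.30 and -0.10 in Ad-Hif1a replicates 1 to 3 and -0.38, -0.17 and -0.49 in Ad-Hif2a replicates 1 to 3. Across the 47 members of each library it lay between -0.49 and -0.16. Genes of 1 library share its RNA and its depth, so these are descriptions. In Ad-Hif1a replicates 1 to 3, 40, 44 and 45 of the 47 members lay below the Ad-C mean, and in Ad-Hif2a replicates 1 to 3, 45, 41 and 41. The median log2 ratio of the G2/M genes was -0.76, -0.67 and -0.67 in Ad-Hif1a replicates 1 to 3. In Ad-Hif2a replicates 1 to 3 it was -1.43, -0.35 and -1.11. The cause of the length trend was not tested. The median length was 3421 bases for G2/M genes, 3031 for G1/S genes and 3128 for all tested genes. When the length trend of each library was taken out through offsets, 7 members fell with Ad-Hif1a and 23 with Ad-Hif2a. Among them were 4 and 18 G2/M genes and 2 and 4 G1/S genes. The share of all genes called in that fit is not given here, so these counts are not read as particular to the members. Pcna and Tk1 passed the threshold in both comparisons in that fit (Pcna -0.83 and -0.72, Tk1 -0.87 and -0.76), and Ccnd2 no longer did in either (adjusted p = 0.237 and 0.14), nor Mcm6 with Ad-Hif2a (-0.49, adjusted p = 0.11). Cenpf and Mki67, whose transcripts are the longest of the 47, kept their calls with smaller changes: -0.84 and -0.97 for Cenpf, and -1.003 and -1.06 for Mki67.

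**Figure D5:**
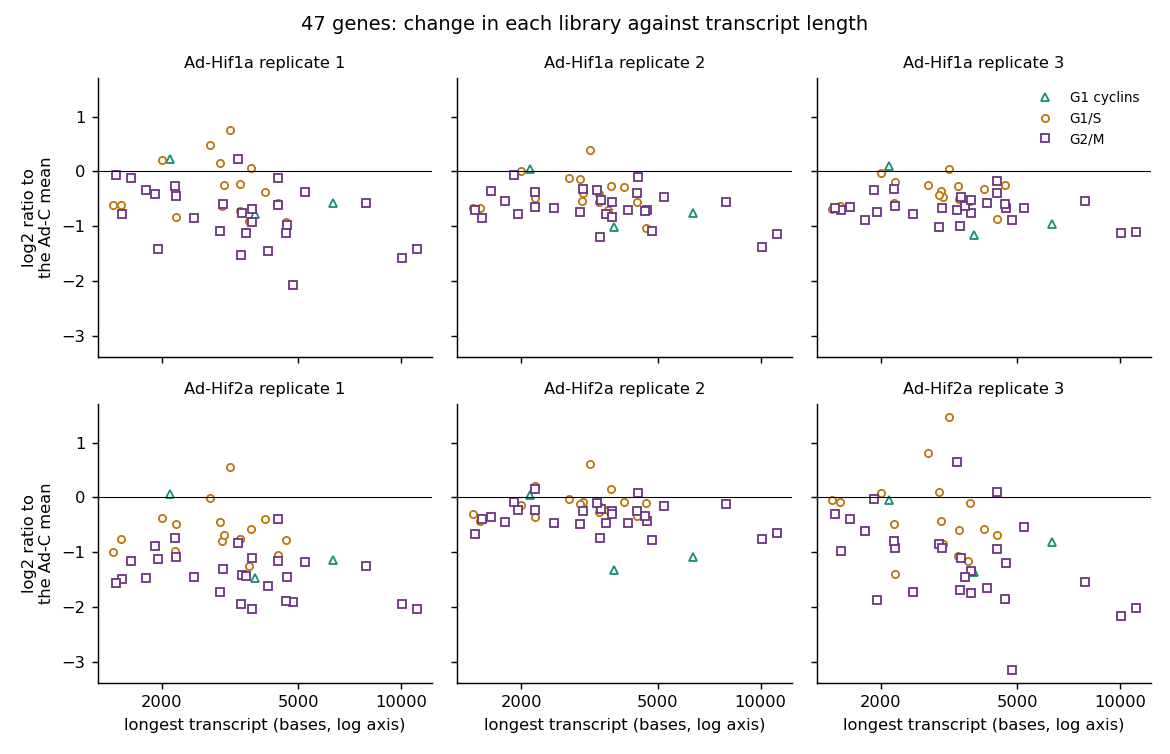
Log2 ratio to the mean of the Ad-C libraries (y axis) against the length of the longest transcript (x axis, bases, log scale) for the 47 genes in each vector library, with D-type cyclins, G1/S and G2/M genes marked apart. Points slope down to the right in Ad-Hif1a replicate 1 and Ad-Hif2a replicate 3 and least in Ad-Hif2a replicate 2 and Ad-Hif1a replicate 3.

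Across the series, library totals were 16239634 to 17696512 counts for Ad-Hif1a and 14372589 to 17517897 counts for Ad-Hif2a, against 17444224 to 18623403 with Ad-C. The delivered genes checked the labels: Hif1a stood at 1240.3 to 2325 CPM with Ad-Hif1a and 447 to 585 CPM with Ad-Hif2a, against 186 to 193 CPM with Ad-C. Epas1 stood at 407 to 679 CPM with Ad-Hif1a and 823 to 2181 CPM with Ad-Hif2a, against 41.9 to 48.8 CPM with Ad-C. Counts from the vector and from the gene of the cells cannot be told apart. Over all tested genes 5.22% fell with Ad-Hif1a and 7.72% with Ad-Hif2a. Of 11 osteoblast markers 4 fell with Ad-Hif1a and 6 with Ad-Hif2a, and all 11 were found. Of 12 macrophage markers 7 and 6 fell, with a summed level of 1457 to 1622 CPM with Ad-Hif1a and 1514 to 1793 CPM with Ad-Hif2a, against 3384 to 3623 CPM with Ad-C. The part of these cells in the values of the 47 genes was not tested. Skeletal muscle markers summed to at most 14.7 CPM, with Myod1 and Myf5 at 0 in all libraries, and endothelial markers to at most 21.3 CPM. Of 4 tested muscle markers, 1 rose and 1 fell with each vector. Of 4 tested endothelial markers, 1 rose and 0 fell with Ad-Hif1a, and 3 rose and 1 fell with Ad-Hif2a. These are too few to set against the shares of all genes. The mitochondrial share of counts was 2.84 to 5.33% in Ad-Hif1a libraries and 2.71 to 5.58% in Ad-Hif2a libraries, against 5.73 to 6.17% with Ad-C. Ad-Hif1a replicate 1 and Ad-Hif2a replicate 3 had the lowest shares, and without both of them 28 members fell with Ad-Hif1a and 29 with Ad-Hif2a. The percentage of all genes called without these 2 libraries is not given here.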

How the data were processed

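The 9 libraries (CORALL total RNA-seq V2 kit) were deposited by the authors as whole-number read counts per gene symbol, not normalized. Among the tools in the submitters' processing notes are STAR and Salmon, fastp, and bcl2fastq 2.20.0.422, with GRCm39 as the build. Roles and settings are not given in the sources used here. Members and gene lists were chosen with earlier results of these data known. Counts were fitted in R 4.3.3 with edgeR 4.0.16 (filterByExpr, TMM, factors 0.957 to 1.03, robust quasi-likelihood model on all 9 libraries, group plus replicate number, since the study names a paired test). The Benjamini-Hochberg adjustment ran over all 14413 genes, with a threshold of 0.05. Adjusted p-values come from this edgeR fit, except those given with transcript length offsets, which come from the edgeR fit with those offsets and the replicate block. Each standard error (SE) was derived from the test, as the absolute log2 fold change divided by the square root of its F value. CPM were scaled by the TMM factors, with 2 as the prior count on the log2 scale. The fit was tested on simulated data. Values in each library are given for up to 4 members of a role with the lowest adjusted p, for the D-type cyclins and for genes of the other lists by the same rule, of which the text prints the leading ones. Alternatives were no block, DESeq2 1.42.0, other scaling factors and filters, a fit on 6 libraries, dropping single libraries, dropping 2 libraries at once and, chosen after seeing the data, offsets for transcript length (longest protein-coding transcript per symbol in GENCODE, or the longest of any kind). Coordinates of promoters are GRCm38.p6, from RefSeq, not the build of the counts. At 14372589 to 18623403 counts a library, no member had under 10 counts in any library.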

Additional observations from a re-analysis of the deposited data

How the results depend on the processing

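The count of the 47 genes that fell with Ad-Hif1a (6) was 8 without the replicate block, 15 with DESeq2, 33 with only the 6 libraries compared, 28 with Ad-Hif1a replicate 1 and Ad-Hif2a replicate 3 both dropped, and 10 with transcript length offsets and no block. Leaving out 1 library gave 0 to 30. The count that fell with Ad-Hif2a (15) was 20 without the block, 25 with DESeq2, 9 with only the 6 libraries, 29 with both dropped, and 23 or 24 with length offsets, with or without the block. Leaving out 1 library gave 1 to 27. The count that rose with Ad-Hif2a (0) was 1, Tyms, without the block, with DESeq2, with both dropped, and with length offsets and no block. The G2/M median minus the G1/S median with Ad-Hif1a (-0.22) was -0.34 with both dropped and -0.34 to -0.14 with 1 library left out. The shares of all genes called in each of these settings are not given here. The shifts in the counts are therefore not read as particular to the 47 genes. The cause of these shifts was not tested. Deviations of libraries with the same replicate number correlated at -0.57 to 0.098, and libraries of different numbers at up to 0.61 (Ad-Hif1a replicate 1 with Ad-Hif2a replicate 3). These values give no sign of a pairing by number and do not exclude one. The block was kept because the study names a paired test.

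Log2 fold changes that turned sign were those of genes near 0, and of Cdk6. With both libraries dropped E2f1 was -0.13 with Ad-Hif1a and -0.051 with Ad-Hif2a, and Ccne1 -0.015 with Ad-Hif1a. With length offsets, with and without the replicate block, Ccne1 was -0.0574 and -0.0573 with Ad-Hif1a. In the Ad-Hif2a comparison those offsets gave -0.13 and -0.13 for Ccnd3, 0.13 and 0.14 for Cdk1, 0.072 and 0.11 for Birc5, and 0.0752 and 0.0763 for Cdk6. Ccnd3 was -0.00050 with upper-quartile factors and -0.030 with no composition factors. Birc5 was 0.028 without the block, 0.0093 with DESeq2, 0.0090 with RLE and 0.015 with at least 10 counts in every library. With 1 library or both left out, the ranges with Ad-Hif1a were -0.23 to 0.31 for E2f1, -0.057 to 0.16 for Ccne1, -0.36 to 0.088 for Mcm7 and -0.73 to 0.14 for Birc5. With Ad-Hif2a they were -0.041 to 0.056 for Ccnd3, -0.11 to 0.55 for E2f1, -0.36 to 0.12 for Mybl2, -0.27 to 0.023 for Ccne1, -0.35 to 0.054 for Mcm7, -0.19 to 0.089 for Cdk1 and -0.55 to 0.40 for Birc5.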
